A study of Homo sapiens with 24 samples.

Results

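The genes described here are 43 protein-coding genes that occupy very long stretches of the genome, among them 6 that lie in or next to common fragile sites (FHIT, WWOX, IMMP2L, MACROD2, NBEA and EXOC4), of 18239 genes measured. They were chosen as a list of long genes with their fall on the hypoxic ESR2 arrays with estradiol in view, so that contrast is described without a test. The list has no threshold on length or on change. The cells were HCT116, an established human colon cancer line, measured on 24 Affymetrix arrays in 8 groups of 3. ESR2 cells, which carry the gene of estrogen receptor beta, and parental cells, labelled WT, were each kept in hypoxia or in normoxia. Each of these 4 conditions was sampled with 10 nM 17β-estradiol, an estrogen, and untreated. The series asks how estrogen receptor beta affects the response to hypoxia.

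ESR2 came in by lentivirus as full-length cDNA with an N-terminal HaloTag, in a vector that also codes for GFP and puromycin resistance, and the cells were selected with 1 μg/ml puromycin, over 80% of them GFP-positive per the labels. The labels name no empty-vector control, so ESR2 and the transduction with its selection cannot be told apart. Cells given estradiol grew in DMEM lacking phenol red, with charcoal-stripped serum, and oxygen was lowered by a nitrogen and CO2 flush. The sources used here give neither the length of the hypoxia nor the medium of untreated cells. Whether replicates were separate cultures is not stated, so the p-values rest on the spread among these arrays and that spread may be technical. The values are log2 signals, on which a difference of 1 is a doubling, and 3 arrays a group limit the precision.

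A very long gene takes RNA polymerase hours to cross, although nearly all of its length is intron that is spliced out of a transcript of ordinary size. Such genes depend on topoisomerases, elongation factors and factors that suppress premature polyadenylation. Common fragile sites are regions that break under replication stress, many of them lie inside such genes, and FHIT and WWOX are often deleted there in colon and other carcinomas.

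The median genomic span of the 43 genes was 547 kb, from 148.1 kb for AUH to 2057.7 kb for MACROD2, in the RefSeq gene table of GRCh38.p14. MACROD2, FHIT, GPHN and WWOX span over 1000 kb. They lie on 17 chromosomes. FHIT occupies chr3:59747277-61251452, WWOX chr16:78099654-79212667 and IMMP2L chr7:110662644-111562492. The mean signal of 6 of the 43 genes was under the median of all probe sets, MACROD2 with 3.04 being the dimmest, and RMA compresses changes of such dim probe sets. The median signal of the 43 was 6.58, against 4.97 over all genes, so shares over all genes are not matched for signal. The members hold 133 probe sets, 1 to 11 a gene, and the brightest of each gene over the 24 arrays gives its value below.

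Promoter windows starting at the outer 5′ end of the gene were on hand for 31 of the 43 genes (RefSeq, GRCh38.p14, 250 bases before to 50 after the start). They were searched on both strands for the core of the hypoxia response element, which HIF binds, as ACGTG or GCGTG (the 2 forms share their last 4 letters but cannot match at the same place), and for the perfect palindrome of the estrogen response element. ACGTG or GCGTG stood in 19 of the 31 windows (61.3%), against 48.4% of 24882 windows of all genes. The palindrome stood in 0 of 31, against 18 of 24882. The windows of the 31 genes held a median of 67% G and C, against 58% in all windows. The windows of IMMP2L, which rose most in hypoxic parental cells, of WWOX, the fragile-site gene that differed most between ESR2 and parental cells in normoxia, and of FHIT are shown in that order, 5′ to 3′ on the gene's strand, at chr7:111562443-111562742 (minus), chr16:78099404-78099703 (plus) and chr3:61251403-61251702 (minus), with any hypoxia core in capitals (CACGC is GCGTG on the other strand).
IMMP2L: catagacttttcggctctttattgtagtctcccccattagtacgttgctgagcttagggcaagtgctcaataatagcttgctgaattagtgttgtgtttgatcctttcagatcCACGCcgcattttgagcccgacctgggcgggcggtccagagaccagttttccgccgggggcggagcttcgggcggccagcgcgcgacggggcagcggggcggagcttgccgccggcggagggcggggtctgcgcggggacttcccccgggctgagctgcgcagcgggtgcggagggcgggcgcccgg
WWOX: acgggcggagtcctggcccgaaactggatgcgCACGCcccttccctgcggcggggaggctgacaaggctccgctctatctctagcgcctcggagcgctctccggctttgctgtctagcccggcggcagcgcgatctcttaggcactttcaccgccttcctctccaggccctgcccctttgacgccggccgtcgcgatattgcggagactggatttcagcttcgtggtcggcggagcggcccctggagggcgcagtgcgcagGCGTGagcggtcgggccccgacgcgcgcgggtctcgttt
FHIT: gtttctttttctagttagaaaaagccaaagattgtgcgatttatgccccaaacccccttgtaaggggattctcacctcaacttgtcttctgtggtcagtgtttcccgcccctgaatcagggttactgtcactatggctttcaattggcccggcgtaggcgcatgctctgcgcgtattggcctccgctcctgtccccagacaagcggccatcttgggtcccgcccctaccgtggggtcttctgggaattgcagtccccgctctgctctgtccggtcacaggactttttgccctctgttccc
IMMP2L has 1 such core, WWOX has 2 and FHIT has none in this window. A match is only a match of letters: the series measured no binding.

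ESR2 itself, the check of the labels, had a signal of 4.51 ± 0.44 in ESR2 and 3.47 ± 0.11 in parental cells in normoxia (SD, n = 3 each), a difference of 1.04 (limma, adjusted p = 6.44e-06). In hypoxia the 2 lines lay closer, at 4.07 ± 0.11 and 3.43 ± 0.11 untreated and at 3.93 ± 0.015 and 3.475 ± 0.07 with estradiol. Of the epithelial markers of the colon, 5 of 8 were above the median of all probe sets, while all 7 fibroblast and all 5 measured leukocyte markers were under it, with summed signals over the 8 groups of 22.3 to 23.3 and 16.1 to 17.5. One array stood apart from its group, replicate 2 of untreated normoxic parental cells: its correlation with its group fell to 0.988, whereas pairs within the other groups reached 0.996 or more. Results that use it are given without it where that changes a call. The 43 genes were not low on that array, where they lay a median of 0.04 above the mean of the other 2 arrays.

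Hypoxia raised most of these genes in parental cells. These are bulk samples, in which fewer cells expressing a gene and less RNA per cell cannot be told apart. Of the 43, 24 rose and 5 fell in untreated hypoxic parental cells against normoxic ones, and 14 did not pass (limma, adjusted p under 0.05 over all genes). Over all genes 16.4% rose and 21.2% fell in this comparison. The median change of the 43 was 0.44, against 0.003 over all genes, and 0.205 with all probe sets of a gene averaged. With estradiol on both sides, on arrays none of which is shared with the first comparison, 27 rose, 5 fell and 11 did not pass, against 16.1% and 18.7% of all genes, with a median of 0.47, or 0.244 with probe sets averaged. In both comparisons 24 genes rose and 5 fell, no gene was called in opposite directions, and VPS13B, TRAPPC9 and SND1 were called with estradiol alone, VPS13B not without replicate 1 of the normoxic or 3 of the hypoxic group; a test of the difference between the 2 changes called 0 of the 43 (limma; 2 at an unadjusted p under 0.05; 0.00548% of all genes).

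The fragile-site genes rose together, 5 of the 6 in both comparisons, against 16.4% and 16.1% of all genes. IMMP2L, a subunit of the inner membrane peptidase of mitochondria, had log2 signals of 7.91, 8.16 and 8.23 on hypoxic parental arrays, against 6.60, 6.74 and 6.75 on normoxic ones. The groups did not overlap, and the rise of 1.41 (2.65-fold, SE 0.12; limma, adjusted p = 2.04e-09) was the largest of the 43. FHIT, a diadenosine hydrolase and tumor suppressor, had 6.48, 6.39 and 6.29 in hypoxia, against 5.29, 5.88 and 5.16 in normoxia, where the middle value came from the array that stands apart. It rose by 0.95 (SE 0.17; limma, adjusted p = 5.96e-05), and by 1.17 with estradiol (adjusted p = 4.30e-06). WWOX, an oxidoreductase with WW domains and also a tumor suppressor, had 6.70, 6.89 and 6.66 in hypoxia, against 6.09, 6.31 and 6.21 in normoxia. Its rise of 0.54 (SE 0.11; limma, adjusted p = 0.000248) was the smallest of the 5 called.

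NBEA, a BEACH-domain protein of vesicle traffic best known in neurons, had 4.20, 4.14 and 4.17 in hypoxia, against 3.06, 2.90 and 3.18 in normoxia, a rise of 1.12 (SE 0.14; limma, adjusted p = 5.05e-07) of a dim signal. EXOC4, a subunit of the exocyst, which tethers secretory vesicles to the plasma membrane, had 7.61, 7.82 and 7.80 in hypoxia, against 6.88, 7.08 and 6.97 in normoxia, a rise of 0.77 (SE 0.09; adjusted p = 1.03e-07). None of these groups overlapped. MACROD2, which removes ADP-ribose from proteins, had 3.15, 3.27 and 3.15 in hypoxia, against 3.08, 2.90 and 2.94 in normoxia. That difference of 0.22 did not pass (limma, adjusted p = 0.0569), and with estradiol it was 0.02. All 8 groups of the 6 genes stand in the plot of fragile-site genes by array.

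**Figure D1:**
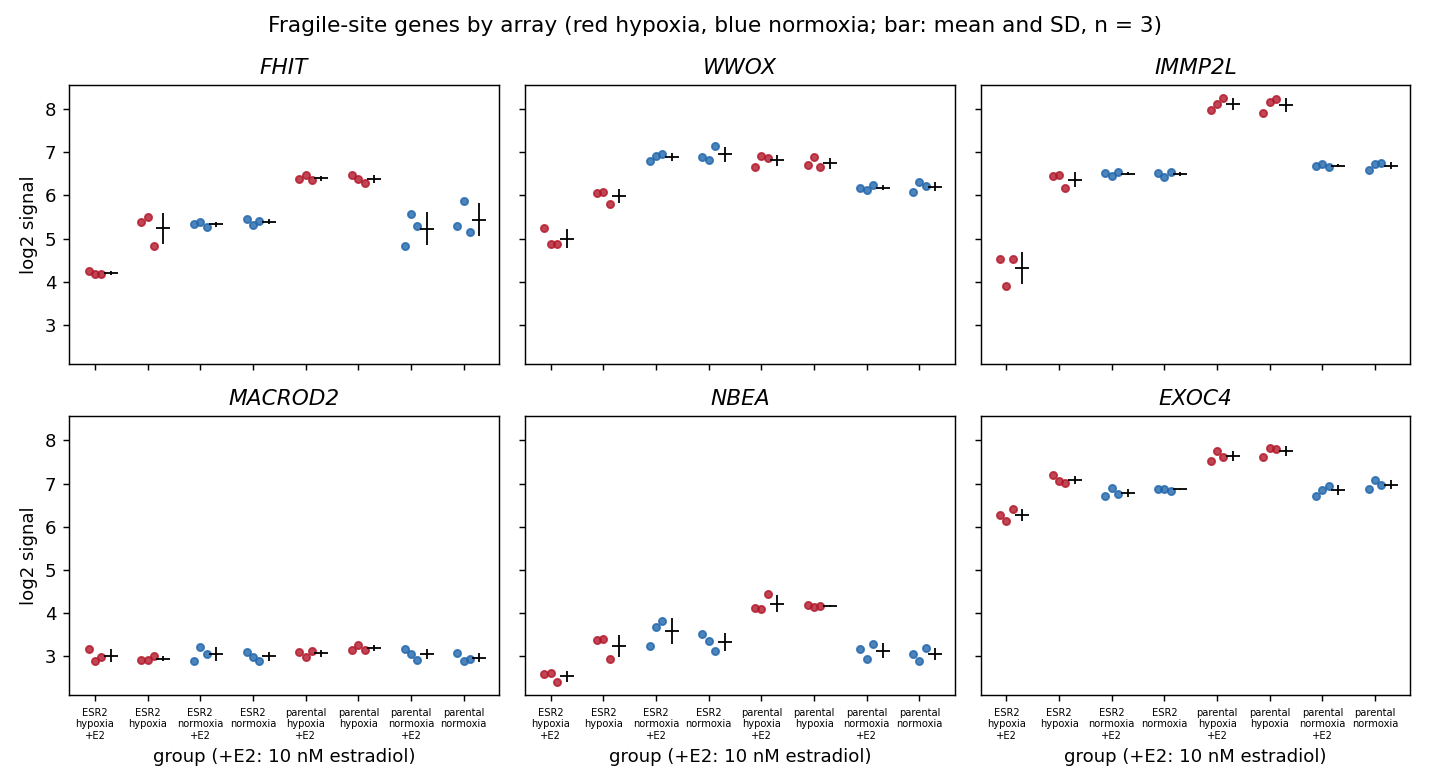
Log2 signals of the 6 fragile-site genes on every array (points) with the mean and SD of the 3 arrays of each group (bars), by group; red groups are hypoxic and blue ones normoxic. IMMP2L, FHIT, NBEA and EXOC4 are highest in the hypoxic parental groups and lowest in hypoxic ESR2 cells with estradiol, WWOX is as high in normoxic ESR2 as in hypoxic parental cells, and MACROD2 stays near 3 in all groups.

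Of the 7 transcription and RNA regulators, 5 rose and none was called lower in hypoxic parental cells, against 16.4% and 21.2% of all genes. ZBTB20, a zinc finger repressor, had 6.96, 7.05 and 6.94 in hypoxia, against 5.79, 5.64 and 5.79 in normoxia, a rise of 1.24 (2.37-fold, SE 0.14; limma, adjusted p = 1.38e-07). ATXN1, the repressor mutated in spinocerebellar ataxia, had 4.72, 4.23 and 4.50 in hypoxia, against 3.34, 3.34 and 3.28 in normoxia, a rise of 1.16 (SE 0.11; adjusted p = 1.11e-08). The groups of both genes lay well apart. TCF12, a basic helix-loop-helix factor, rose by 1.09, ZMIZ1, a coactivator related to SUMO ligases, by 0.44 and FTO, an RNA demethylase, by 0.27. The tRNA-modifying enzyme CDKAL1 (-0.07) and the RNA-binding nuclease SND1 (0.21) did not pass.

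Of the 6 genes of metabolism, transport and other tasks, 4 rose and 1 fell, against 16.4% and 21.2% of all genes. PCCA, the alpha subunit of mitochondrial propionyl-CoA carboxylase, had 8.09, 8.25 and 8.12 in hypoxia, against 7.09, 6.95 and 7.03 in normoxia. Its rise of 1.13 (2.19-fold, SE 0.06; limma, adjusted p = 1.15e-13) had the smallest p of the 43. FBXL17, an F-box protein, rose by 1.07, AUH, an enzyme of leucine breakdown, by 0.855 and the zinc transporter SLC39A11 by 0.32, while THADA, a gene rearranged in thyroid adenomas, fell by 0.56. GPHN, which codes for gephyrin, a synaptic scaffold and molybdenum cofactor enzyme, did not pass (-0.09). Of the 9 membrane traffic genes 4 were higher and 2 lower, the latter near the share of all genes. LRBA, a BEACH protein of receptor recycling, rose by 0.95, TBC1D5, a Rab GTPase activator, by 0.73, EXOC6B of the exocyst by 0.65 and the Golgi tether subunit COG5 by 0.58. VTI1A, a SNARE of the Golgi and endosomes, had 5.72, 5.62 and 5.60 in hypoxia, against 6.76, 6.75 and 6.66 in normoxia, and its fall of 1.08 (2.11-fold, SE 0.11; limma, adjusted p = 2.40e-08) was the largest; RABGAP1L fell by 0.51.

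Of the 7 adhesion, polarity and cytoskeleton genes 4 rose, against 16.4% of all genes. The rises ran from 0.505 for the focal adhesion kinase PTK2 to 0.53 for the polarity protein PARD3, with the phosphatase PTPRK and the Rac activator DOCK1 between them. Of the 3 kinases and growth regulators, the protein kinase PRKCA rose by 0.63 and RPTOR, the raptor subunit of mTORC1, fell by 0.81. Of the 5 genes of genome maintenance, chromatin and mitosis, the methyltransferase SMYD3 rose by 0.92 and the spindle checkpoint protein MAD1L1 fell by 0.51, while RAD51B, BABAM2 and NSMCE2, which act in DNA repair, did not pass. WWOX and RPTOR lost their calls, and the change of PTPRK turned negative, when all probe sets of a gene were averaged. With estradiol FTO, RABGAP1L, RPTOR, VPS13B and WWOX lost their calls in that way, and PTPRK and RPTOR turned sign. No other alternative, and no array left out, ended a call in the untreated comparison.

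**Figure D2:**
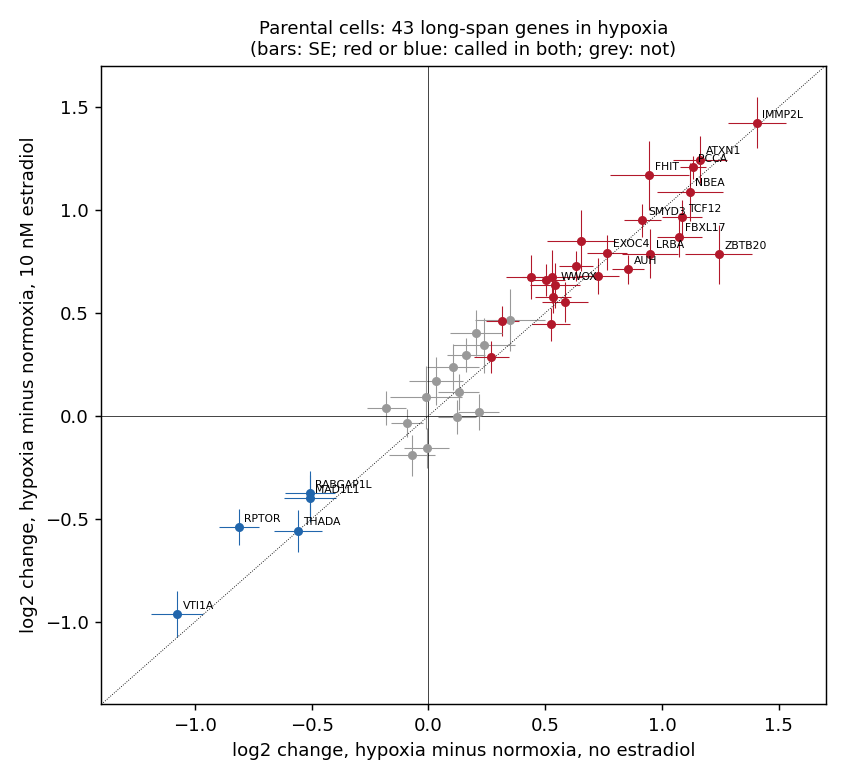
Log2 change of each of the 43 genes in hypoxic against normoxic parental cells without estradiol (x) and with 10 nM estradiol (y), each from its own arrays, with SE bars; red and blue points were called higher and lower in both, grey points were not. The 24 genes called higher and the 5 called lower lie near the dotted line of equal change.

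ESR2 cells differed from parental cells in normoxia in fewer of these genes. Without estradiol 9 were higher in ESR2 cells, 5 lower and 29 not called, against 9.76% and 8.86% of all genes, and their median difference was 0.005, against -0.006 over all genes. With estradiol on both sides, on other arrays, 10 were higher, 1 lower and 32 not called, against 8.45% and 5.22%. The lower genes were 4 in place of 1 after quantile normalization again, centring on medians, array weights or the spread of only these groups. In both, 8 were higher and 1, PARD3, lower. These shares are nearer to those of all genes than the shares that rose in hypoxia. The normoxic parental arrays are also the baseline of the hypoxia comparisons above.

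WWOX had 6.90, 6.82 and 7.15 in normoxic ESR2 cells, against 6.09, 6.31 and 6.21 in parental cells. Its difference of 0.75 (1.68-fold, SE 0.11; limma, adjusted p = 3.32e-05) was the largest of the 43, and it was 0.72 with estradiol (adjusted p = 6.07e-05). PCCA had 7.66, 7.66 and 7.67 in ESR2 cells, against 7.09, 6.95 and 7.03 in parental cells, a difference of 0.64 (SE 0.06; adjusted p = 3.82e-08). For neither gene did the groups overlap. VPS13B, a lipid transfer protein of the Golgi, had 6.91, 6.68 and 6.39 in ESR2 cells, against 6.15, 6.17 and 5.94 in parental cells (0.57; limma, adjusted p = 0.00926), and it was not called with the spread of these 2 groups alone or without replicate 1 of the ESR2 group. PTPRK had 9.10, 9.01 and 9.03 in ESR2 cells, against 8.63, 8.37 and 8.52 in parental cells (0.54, SE 0.08; limma, adjusted p = 5.22e-05). FBXL17 (0.46), FHOD3, a formin that assembles actin (0.42), LRBA (0.36), BABAM2 (0.34) and SLC39A11 (0.21) were also higher.

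Lower in ESR2 cells were ZMIZ1 (-0.52), the Arf regulator AGAP1 (-0.50), PRKCA (-0.36), PARD3 (-0.31) and FTO (-0.22). FTO lost its call without replicates 2 or 3 of the parental group or any replicate of the ESR2 group, SLC39A11 without replicates 2 or 3 of the parental or 1 or 3 of the ESR2 group, and LRBA without replicates 2 or 3 of the parental or 1 or 2 of the ESR2 group. With all probe sets of a gene averaged, PARD3 lost its call and its sign turned, and FBXL17 lost its call, with and without estradiol. With the spread of only these 2 groups, 2 genes were called lower in place of 5, AGAP1, FTO and PARD3 losing the call. With estradiol the count of higher genes was 6 without replicate 1 of the parental group and 5 without replicate 3 of the ESR2 group, in place of 10. In that comparison PARD3 lost its call without replicates 1 or 3 of the parental group and without replicates 1 or 2 of the ESR2 group. Of the fragile-site genes, FHIT, IMMP2L, MACROD2 and EXOC4 were not called in either comparison, with differences between -0.20 and 0.10, and NBEA was called with estradiol alone (0.45; limma, adjusted p = 0.0335), a call lost without replicates 1 or 2 of the parental or 2 or 3 of the ESR2 group.

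Estradiol called none of the 43 genes where a test could be made. In normoxic parental cells 0 passed (limma; 4 at an unadjusted p under 0.05; 0.011% of all genes), in hypoxic parental cells 0 (3 unadjusted; 0.0164% of all genes) and in normoxic ESR2 cells 0 (2 unadjusted; 0% of all genes). The largest differences were 0.36 for ZBTB20 (adjusted p = 0.295), 0.32 for RABGAP1L (adjusted p = 0.876) and 0.33 for ZBTB20 (adjusted p = 0.915), in that order. Without replicate 1 of untreated normoxic parental cells 1 member was called lower in the first of these comparisons. A test of whether estradiol acted differently in ESR2 and parental cells in normoxia called 0 (1 unadjusted; 0% of all genes).

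In hypoxic ESR2 cells the values with estradiol were far lower, and these are the values that the choice of members rests on. On the arrays with estradiol 37 genes were lower than on those without it, with no overlap of the 3 and 3 values, and 2 were higher; over all genes 22.4% were lower and 35.7% higher in this sense. The median difference was -1.17, against 0.12 over all genes, and 25 of the 43 were more than 2-fold lower, against 865 of all 18239 genes. FHOD3 had 3.25, 3.41 and 3.96 with estradiol, against 6.37, 6.34 and 6.18 without, a difference of -2.76. ZMIZ1 had 4.69, 4.30 and 4.08 with estradiol, against 7.08, 7.19 and 6.98 without (-2.72). KANK1, a scaffold of focal adhesions, had 5.47, 5.30 and 5.11 with estradiol, against 7.94, 8.08 and 7.93 without (-2.69).

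DOCK1 was at 5.02, 4.87 and 5.47 with estradiol, against 7.72, 7.76 and 7.45 without (-2.52). All 7 adhesion, polarity and cytoskeleton genes and 8 of the 9 membrane traffic genes were lower without overlap, against 22.4% of all genes. Their median differences were -2.285 and -1.39, in the contrast that the choice of members rests on. IMMP2L had 4.54, 3.90 and 4.52 with estradiol, against 6.44, 6.48 and 6.16 without (-2.045). FHIT had 4.26, 4.18 and 4.18 with estradiol, against 5.39, 5.51 and 4.83 without (-1.04). WWOX (-0.99), EXOC4 (-0.82) and NBEA (-0.71) were also lower on every array with estradiol, and MACROD2, near 3.0 on all 6 arrays, differed by 0.07.

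CDKAL1 and ULK4, a pseudokinase, were the 2 genes higher without overlap. CDKAL1 had 5.28, 5.745 and 5.58 with estradiol, against 4.71, 4.76 and 4.62 without (0.84). ZBTB20 (0.32) and the 3 dim genes RAD51B (-0.07), TRAPPC9 (-0.05) and MACROD2 overlapped. The heat map of all 43 genes shows the 3 estradiol arrays apart from the other 21.

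**Figure D3:**
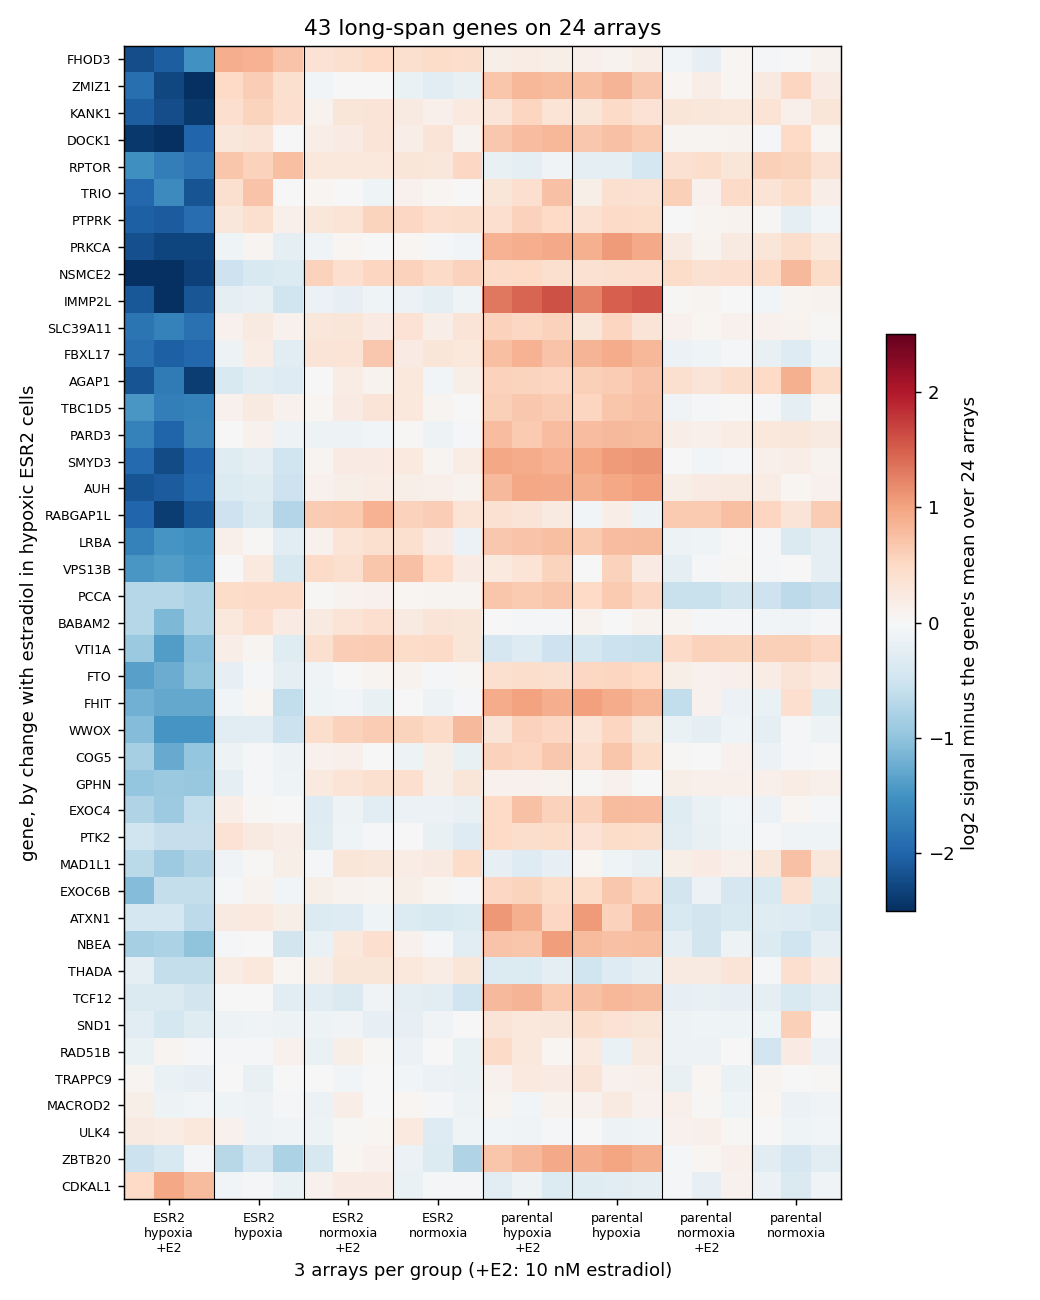
Log2 signal of each of the 43 genes (rows) on each of 24 arrays (columns, 3 a group) minus the gene's mean over the 24 arrays; red is higher and blue lower, and rows are ordered by the difference with estradiol in hypoxic ESR2 cells. The 3 arrays of hypoxic ESR2 cells with estradiol are blue for most genes, and the 6 hypoxic parental arrays are red for most.

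Signs of RNA or label length moved with this contrast. The 3′ minus 5′ index, which on the log2 scale compares control probe sets at the ends of beta-actin and of 2 spiked transcripts and grows as the labelled RNA gets shorter, was 3.74 ± 0.30 with estradiol and 2.10 ± 0.10 without in hypoxic ESR2 cells (SD, n = 3 each). In the other 6 groups it averaged 2.36 to 3.20. The array with the highest index, 4.34, was replicate 2 of untreated normoxic parental cells, on which none of the 43 genes was lower than the mean of the other 2 arrays by more than 1 (lowest -0.27). With the index as a covariate the median of the 43 in the contrast was -1.34, and -1.26 with that array left out as well. The part of the index in the fall was not tested. The labels' protocols give RNA integrity numbers from 8.5 to 10.

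Against their own normoxic baseline, hypoxic ESR2 cells without estradiol had 8 of the 43 genes higher and 12 lower without overlap. Both shares were near those of all genes (18% and 25.2%), as was the median of -0.065, against -0.055 over all genes. ESR2 arrays in hypoxia belong to the contrast used for the choice, so this too is a description. WWOX had 6.06, 6.09 and 5.80 in hypoxic ESR2 cells, against 6.90, 6.82 and 7.15 in normoxic ones (-0.97), where parental cells had risen by 0.54. RABGAP1L was at 5.21, 5.37 and 5.01, against 6.31, 6.35 and 6.08 (-1.05), and NSMCE2, a SUMO ligase of the SMC5/6 complex, at 7.22, 7.35 and 7.38, against 8.30, 8.20 and 8.31 (-0.95). ZMIZ1 went up, at 7.08, 7.19 and 6.98 in hypoxic against 6.42, 6.31 and 6.40 in normoxic ESR2 cells (0.71).

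With estradiol on both sides, 2 genes were higher and 36 lower in hypoxic ESR2 cells (33.8% and 25% of all genes), with a median of -1.67. NSMCE2 was lowest there, at 5.18, 5.11 and 5.40 in hypoxia, against 8.30, 8.14 and 8.26 in normoxia (-3.004), followed by RABGAP1L (-2.87), DOCK1 (-2.56) and KANK1 (-2.47). Set against hypoxic parental cells, hypoxic ESR2 cells had 6 genes higher and 29 lower without estradiol (24.1% and 26.6% of all genes; median -0.49) and 2 higher and 38 lower with it (33.8% and 22.9%; median -1.685). All of the 6 fragile-site genes were lower without estradiol. IMMP2L differed most, by -1.735 without estradiol and by -3.80 with it, and ZBTB20 (-1.56), SMYD3 (-1.39) and AUH (-1.35) followed without estradiol. PRKCA (-3.18), DOCK1 (-3.08) and ZMIZ1 (-2.98) followed with it. RPTOR (0.97), FHOD3 (0.70), THADA (0.52), VTI1A (0.48), BABAM2 (0.23) and CDKAL1 (0.19) were higher in ESR2 cells without estradiol.

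Agreement between probe sets of one gene varied with the comparison. Of the 90 other probe sets of the members, 22, of 14 genes, had a mean signal of at least 5. All 22 had the sign of the gene's brightest probe set in the hypoxic ESR2 contrast of estradiol, and 17 of 22 did in parental hypoxia. For ESR2 against parental cells in normoxia 14 of 22 did, and 12 of 22 with estradiol. Among all 90, most of them dim, 57 had the same sign in the first contrast and 61 in the second.

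**Figure D4:**
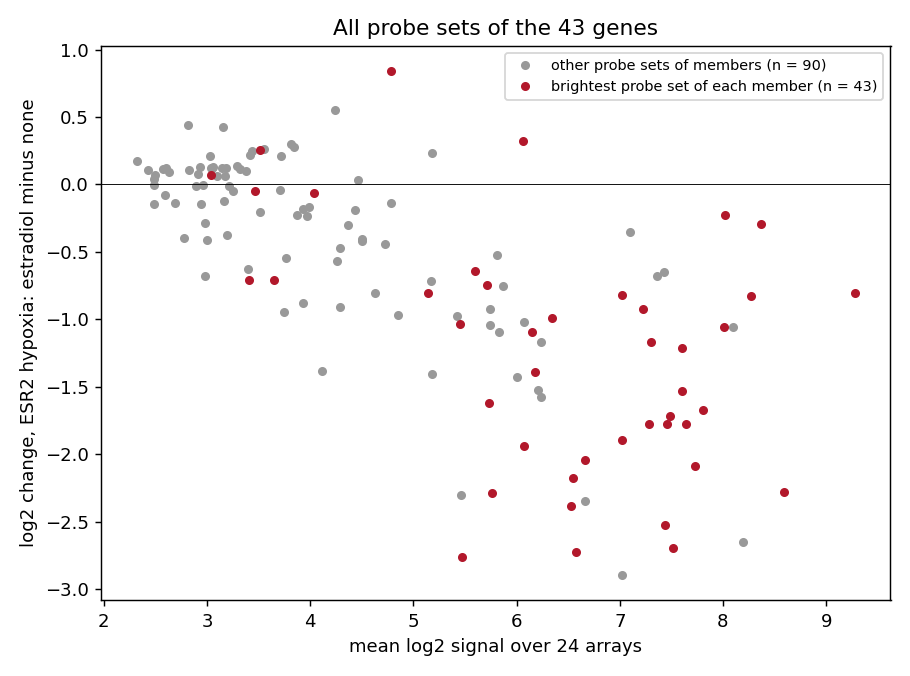
Mean log2 signal over 24 arrays (x) and log2 difference between hypoxic ESR2 arrays with and without estradiol (y) for the 43 brightest (red) and the 90 other (grey) probe sets of the members. Below a signal of 5 the grey points scatter around 0, and above it all but 1 of them lie under 0, as do most of the red points.

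Some genes had probe sets that disagreed. PTPRK rose by 0.53 in hypoxic parental cells by its brightest probe set and by 0.54 by the next, while a dimmer one, with a mean signal of 5.81, differed by -2.035 without and by -2.156 with estradiol. Another probe set of WWOX, with a mean signal of 5.17, differed by -0.62 in hypoxic parental cells, where the brightest rose by 0.54. The brightest probe set of TRIO differed by -0.01 there and the next by 1.26. In the hypoxic ESR2 contrast the other probe set of CDKAL1 differed by -0.63, against 0.84 for the brightest, so its direction rests on the probe set. RPTOR had -2.38 by its brightest and 0.55 by a dimmer probe set, with a mean signal of 4.24. The transcripts that these probe sets detect were not told apart here.

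Change went with span among other genes too, where their signal was high enough. Of the genes that are no members, 7145 had a known span and a mean signal of at least 6 over the 18 arrays outside hypoxic ESR2 cells. In hypoxic parental cells their median change went up with span, at -0.22 for 1446 genes under 10 kb, -0.16, -0.05, 0.13, 0.195 and 0.39 for the classes up to 500 kb and 0.51 for 32 genes over 500 kb. With estradiol the same classes ran from -0.14 to 0.42. In hypoxic ESR2 cells the difference with estradiol ran the other way, at 0.08 under 10 kb and -0.78 over 500 kb. Spearman's rank correlation between change and span across these genes was 0.23 in hypoxic parental cells and -0.25 for estradiol in hypoxic ESR2 cells. It was also 0.29 for estradiol in normoxic and 0.24 in hypoxic parental cells, where almost no gene was called, so a correlation of this size was seen without called changes. On the normoxic parental array with the highest index, the median of these genes against the other 2 arrays of its group was 0.14 under 10 kb, -0.12 at 100 to 200 kb, -0.10 at 200 to 300 kb and -0.04 over 500 kb, and the part of RNA or label length in the span pattern was not tested. Genes are not independent replicates, and they share the same arrays.

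**Figure D5:**
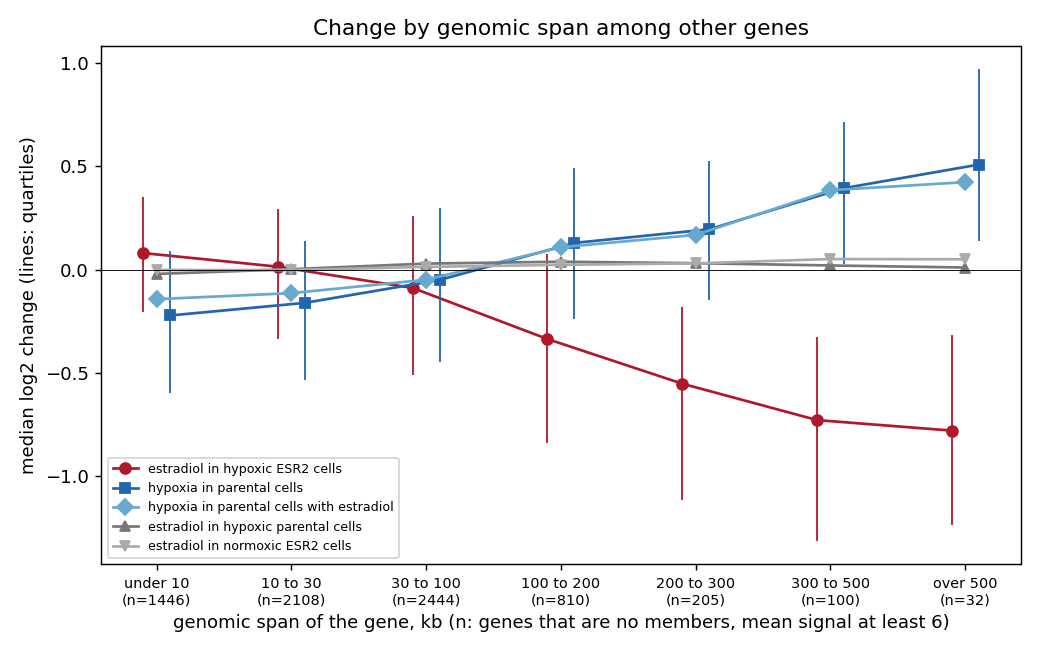
Median log2 change of genes that are no members, with a mean signal of at least 6, by genomic span in kb, for 5 comparisons; vertical lines are quartiles for 2 of them. In hypoxic parental cells the median climbs with span to 0.51, for estradiol in hypoxic ESR2 cells it drops to -0.78, and the other 2 estradiol comparisons stay near 0.

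Without a limit on signal the medians in hypoxic parental cells were only -0.005 under 10 kb, -0.017, 0, 0.049, 0.066, 0.067 and 0.04 over 500 kb (277 genes). For estradiol in hypoxic ESR2 cells they were 0.17 under 10 kb, 0.13, 0.08, 0.02, -0.04 at 200 to 300 kb, 0.05 and 0.12 over 500 kb. These fell with span up to 300 kb and not beyond. The share of genes with a negative difference was 21.5% under 10 kb, 53.1% at 200 to 300 kb and 30.3% over 500 kb. Of the other genes at least as long as AUH, 1937 in all, 612 had a signal of at least 6, and their medians were 0.21 in hypoxic parental cells and -0.56 for estradiol in hypoxic ESR2 cells, against 0.44 and -1.17 in the 43. That gap has no test, since the 43 were chosen on these values. Within the 43, the rank correlation with span was 0.24 and 0.30 in the 2 comparisons, so that in the second the longer members were not the ones that differed most. With mean signal it was 0.16 and -0.36, so that in the second the dimmer members differed less. Length and signal were not told apart among the 43.

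Some genes that act on the transcription of long genes moved as well. The list holds topoisomerases, elongation factors and kinases, U1 proteins and SFPQ, and also PCF11 and XRN2, which act in ending transcription. Of its 34 measured genes, 5 rose and 17 fell in hypoxic parental cells, against 16.4% and 21.2% of all genes, with a median of -0.15. The median signal of the 34 was 7.94, against 4.97 over all genes, so these shares are not matched for signal. SFPQ, a splicing factor needed for the elongation of long genes in mouse neurons, had 8.88, 8.78 and 8.77 in hypoxic parental cells, against 11.02, 11.01 and 10.91 in normoxic ones, a fall of 2.17 (4.50-fold, SE 0.05; limma, adjusted p = 1.12e-18). PCF11, which ends transcription at polyadenylation sites, fell by 2.06 and SUPT5H, an elongation factor, by 0.96, while ELL2, also an elongation factor, rose by 1.5. In hypoxic ESR2 cells SFPQ stood at 11.02, 10.99 and 10.95, against 11.05, 11.04 and 10.97 in normoxic ones. For estradiol in hypoxic ESR2 cells 9 of the 34 rose and 19 fell, against 35.4% and 21.6% of all genes, ELL2 rising by 1.77, SUPT5H by 0.98, the transcription kinase CDK13 falling by 1.12 and the histone methyltransferase SETD2 by 0.76.

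Of 25 measured genes that act on replication stress at fragile sites, 2 rose and 12 fell in hypoxic parental cells, against 16.4% and 21.2% of all genes. The median signal of the 25 was 6.48, against 4.97 over all genes, so these shares are not matched for signal. TIPIN, of the fork protection complex, fell by 1.09 (SE 0.09; limma, adjusted p = 1.23e-09), ATRIP, the partner of the ATR kinase, by 1.02, the nuclease ERCC4 by 0.93 and the helicase BLM by 0.86. For estradiol in hypoxic ESR2 cells 9 rose and 10 fell, against 35.4% and 21.6% of all genes, with differences of -1.29 for TIMELESS, the partner of TIPIN, -1.12 for the cohesin subunit SMC1A, -0.74 for the checkpoint kinase CHEK1 and 1.23 for the helicase FANCM. Of 14 other measured long genes, 12 had signals under the median of all probe sets. In hypoxic parental cells 2 of the 14 rose and 0 fell, against 16.4% and 21.2% of all genes. The 2 were FOXP1, a forkhead factor (1.26, SE 0.13, limma, adjusted p = 1.57e-08), and DPYD, which degrades pyrimidines (0.37). With estradiol in hypoxic ESR2 cells 6 of the 14 rose and 1 fell, against 35.4% and 21.6% of all genes, with a median of 0.15. FOXP1 was the 1 that fell, by 1.02. DLG2 (0.84), CNTNAP2 (0.40) and CTNNA3 (0.38), with mean signals of 4.24, 3.87 and 3.24, were among the higher ones. The part of any of these factors in the changes of the 43 genes was not tested.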

How the data were processed

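The deposited values are log2 signals that the authors made with RMA (background correction, quantile normalization, one value a probe set); RMA and affy are named per the submitters' processing notes, with versions not given in the sources used here. Of 49386 probe sets, 45253 have 1 gene symbol in the platform annotation, and 18239 genes resulted, each read by its brightest probe set over 24 arrays, with no filter. Names and spans come from the RefSeq table of GRCh38.p14. The genome build behind the arrays' annotation is not given in the sources used here.

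A single model of group means, leaving 16 residual degrees of freedom, covered the 24 arrays (lmFit and eBayes of limma 3.58.1, R 4.3.3). Benjamini-Hochberg adjustment ran over all genes, with a threshold of 0.05. Tests on members were made in 7 comparisons and 2 interactions that hold no hypoxic ESR2 array. In the other 5 comparisons members are described by values and by whether groups overlap. The fit was tested on simulated data. Figures were drawn with matplotlib 3.10.9. The members and the lists of other genes were chosen with earlier results of these data known.

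Named genes are the fragile-site genes and, per array, the 4 members with the largest change in a comparison, with other members by their change, and up to 4 of each list. CDKAL1, ULK4, VTI1A and the probe sets named were singled out after their values were seen. In the 7 tested comparisons replicate numbers did not pair the arrays: the deviations of same-numbered arrays correlated between -0.29 and 0.29. Comparisons that hold hypoxic ESR2 arrays were not checked for pairing. There were 12 alternatives, and 2 were added after the data were seen (leaving out the 6 hypoxic ESR2 arrays, and the index covariate without the array that stands apart).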

Additional observations from a re-analysis of the deposited data

Results flagged for a closer look

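The index that sets 3′ against 5′ controls enters no main comparison and is a covariate in alternative settings only. On the log2 scale it was 3.741 in hypoxic ESR2 cells with estradiol (SD 0.301, n = 3) and 2.103 in hypoxic ESR2 cells without estradiol (SD 0.096, n = 3). The 3 values of the first group lay between 3.42 and 4.01 and those of the second between 2.00 and 2.19. It stands out because these are the same arrays on which the 43 long genes had a median of -1.29 relative to their mean over all arrays. Its part in that median was not tested.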

How the results depend on the processing

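Under 12 other settings and 2 added after the data were seen, 403 values of counts and medians of the 43 genes stayed near the main value, and 38 moved. A median stayed near if its shift was under the SD of the members' array medians within groups, whatever its sign when small. A count stayed near within a set ratio, so that 6 genes in place of 9 still did. Medians close to 0 crossed it under some settings. Among called genes the sign turned only with the mean of all probe sets, for PTPRK in parental hypoxia with and without estradiol, RPTOR with estradiol, and PARD3 in normoxic ESR2 cells with and without it. In parental hypoxia the median of the 43 (0.44) was 0.517 after quantile normalization again, 0.505 with the brightest probe set over 18 arrays, 0.506 with array weights and 0.205 with the mean of all probe sets; with estradiol (0.467) it was 0.508 after quantile normalization again, 0.552 with the brightest over 18 arrays, 0.51 without the dimmest genes (1 in 3) and 0.244 with the mean of probe sets. The median for estradiol in hypoxic ESR2 cells (-1.171) was -1.055 after quantile normalization again, -1.461 without those dimmest genes, -0.708 with the mean of probe sets, -1.342 with the index as a covariate and -1.263 with that array left out too; dim probe sets enter the mean at equal weight. That for estradiol in normoxic parental cells was 0.039 after quantile normalization again, in place of -0.001. The genes lower in normoxic ESR2 cells numbered 2 in place of 5 with the spread of only the groups compared. With estradiol they numbered 4 in place of 1 after quantile normalization again, centring on medians, array weights or the spread of only these groups, and 2 with the brightest probe set over 18 arrays, with the index as a covariate with and without the array that stands apart, and without the 6 hypoxic ESR2 arrays. The cause of these moves was not tested.

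Leaving out each array in turn gave 24 to 26 higher and 5 to 6 lower genes in parental hypoxia, with medians of 0.386 to 0.479, and 26 to 27 and 5 with estradiol, with medians of 0.45 to 0.535. For ESR2 against parental cells in normoxia it gave 6 to 9 higher and 4 to 6 lower genes, and 5 to 11 and 0 to 2 with estradiol. Estradiol in normoxic parental cells gave 0 to 1 lower genes, with medians of -0.048 to 0.014, and the median for estradiol in hypoxic ESR2 cells ran from -1.237 to -1.05. VPS13B lost its call in parental hypoxia with estradiol without replicate 1 of the normoxic or replicate 3 of the hypoxic group. With the replicate number as a block (replicate block) 24 genes were higher and 5 lower in parental hypoxia, and 9 and 4 in normoxic ESR2 cells, FTO losing its call; with estradiol LRBA lost its call. In the tested comparisons the numbers did not pair the arrays, so the block says nothing about the size of those effects. Dim signals limit the 6 members under the median of all probe sets, and 3 arrays a group limit all.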
